A study of Homo sapiens with 6 samples.

Results

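The NRF2 antioxidant pathway was examined through 9 genes, NFE2L2, KEAP1, GCLC, GCLM, TXNRD1, SRXN1, NQO1, HMOX1 and OSGIN1, chosen by gene symbol from the 23228 genes listed in the count tables. All 9 were found and all had enough reads to be tested. The samples were MDA-MB-231 cells, a human line established from a triple negative breast cancer (TNBC), in 2 groups of 3 replicates. Control cells carried a lentiviral non-targeted shRNA and PELP1-KD cells carried a lentiviral PELP1 shRNA of a single sequence, with puromycin selection in both groups. PELP1 is a coregulator of nuclear receptors and other transcription factors and takes part in ribosome biogenesis. The labels do not say whether the replicates came from separate selections or cultures, so that the p-values measure the spread between these replicates, which may be technical.

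NRF2, the protein encoded by NFE2L2, is a transcription factor that is held at a low level by KEAP1, an adaptor that presents it to a CUL3 ubiquitin ligase for degradation. Oxidants and electrophiles modify cysteines of KEAP1, and NRF2 then accumulates, pairs with a small MAF protein and binds antioxidant response elements (AREs) near genes for glutathione synthesis, thioredoxin reduction, quinone detoxification and heme breakdown. BACH1 competes for many of the same elements as a repressor, and HMOX1 is its best known target. Because NRF2 is controlled largely through protein stability, the mRNA of NFE2L2 is not a measure of NRF2 activity, and protein levels were not analysed here.

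The members did not move in a single direction. Of the 9 genes, 5 were downregulated in PELP1-KD cells (55.6%), 3 were upregulated (33.3%) and GCLC passed no threshold. Among them GCLM fell by 21.7%, the most of the downregulated members, and HMOX1 rose by 41.4%, the most of the upregulated ones. Genes were tested by the quasi-likelihood test of edgeR on the read counts, with library sizes scaled by TMM and a Benjamini-Hochberg adjusted p-value below 0.05 as the threshold, and CPM is the count scaled to a common library size of 1000000 reads. By the same rule, 24.2% of the 12796 tested genes were lower and 22.7% were higher, 46.9% together. Among the 7887 tested genes with a mean CPM at or above 20.3, the lowest mean of any member, 53.3% passed. The values of both groups were fully apart in 8 of the 9 members, and the same held for 55.0% of tested genes. A log2FC beyond 1 in addition to the adjusted p-value was reached by 3.24% of tested genes, whereas the members lay between -0.35 and 0.50.

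**Figure D1:**
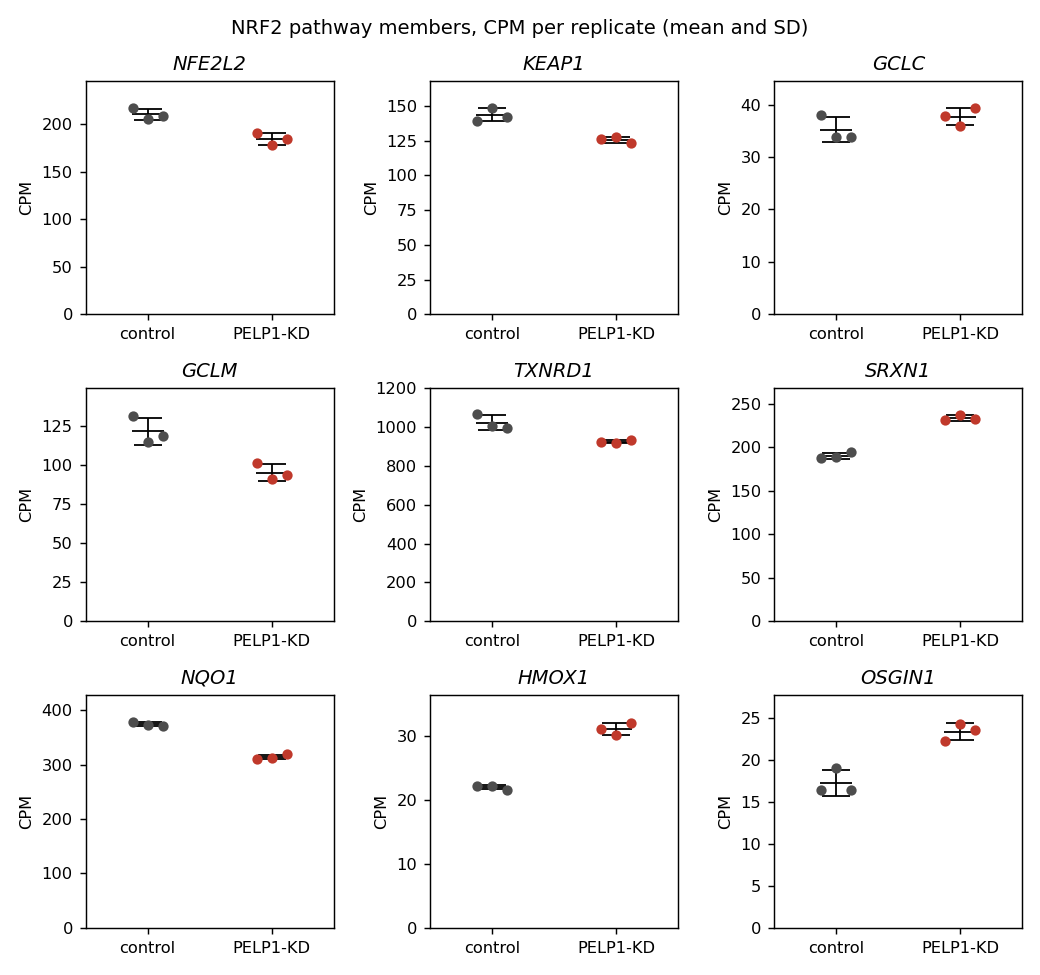
Expression of the 9 members in CPM, on axes that start at 0, with 1 point for each of the 3 control and 3 PELP1-KD replicates and the mean with its SD. The points of both groups overlap for GCLC alone, and HMOX1, OSGIN1 and SRXN1 are the genes whose PELP1-KD points lie above the control points.

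Between 17304864 and 23132102 reads were counted on genes in each replicate, and 3 reads, taken as the floor of detection, correspond to between 0.13 and 0.173 CPM. PELP1 itself fell from a mean of 57.8 ± 2.14 CPM in control cells to 29.6 ± 0.876 CPM in PELP1-KD cells (SD, n = 3). The labelled cell type was checked against its markers. VIM, CD44, EGFR, KRT18 and KRT8 summed to between 4031 and 4177 CPM in the controls and between 3356 and 3371 CPM in PELP1-KD cells. Each of these was downregulated, as were 24.2% of all tested genes. Their log2FC lay between -0.545 for CD44 (adjusted p = 8.62e-13) and -0.132 for KRT8 (adjusted p = 0.00202). ESR1 and PGR had at most 2 reads in any replicate, and ERBB2 was not low, at 113 CPM in control cells and 118 CPM in PELP1-KD cells. Of 6 fibroblast markers, COL1A1 and PDGFRB were above 1 CPM, and both were upregulated in PELP1-KD cells. Their log2FC was 1.608 (adjusted p = 3.23e-10) and 1.525 (adjusted p = 3.73e-13). The list summed to between 19.4 and 24.1 CPM in the controls and between 61.9 and 67.3 CPM in PELP1-KD cells. COL1A2, COL3A1 and LUM had at most 6 reads in any replicate, and DCN was at 0 in every replicate. Of 5 leukocyte markers, CD68 alone was above 1 CPM, the list summed to between 117 and 120 CPM in the controls and between 90.7 and 97.7 CPM in PELP1-KD cells, and PTPRC was at 0. Control replicate 1 stood apart from the other controls, with a chi-square over its degrees of freedom of 3.88 and 4.11 against them where these differed from each other by 1.47. PELP1-KD replicate 2 differed from the others of its group by 2.76 and 2.72, where the remaining pair differed by 1.51. The TMM factors were between 0.978 and 0.987 in the controls and between 1.016 and 1.018 in PELP1-KD cells, and the share of alignments on no annotated gene was between 7.64% and 7.82% in the controls and between 7.89% and 8.2% in PELP1-KD cells. The part of the marker genes and library measures in the results was not tested. In bulk RNA, a change in every cell and a change in the share of some cells cannot be told apart.

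The 9 genes took 0.208% to 0.215% of the reads on genes in the control replicates and 0.199% to 0.202% in the PELP1-KD replicates. Levels of different genes were compared as RPKM, the CPM divided by the exon length of the gene in kilobases. In control cells TXNRD1 had the highest level, at 152 RPKM ± 5.75 (SD, n = 3), followed by NQO1 at 115 RPKM ± 1.23 (SD, n = 3) and SRXN1 at 70.7 RPKM ± 1.32 (SD, n = 3). These 3 enzymes of detoxification and thiol reduction stood above the pathway's own control genes, KEAP1 at 38.2 RPKM ± 1.24 (SD, n = 3) and NFE2L2 at 35.3 RPKM ± 0.971 (SD, n = 3). GCLM reached 22.4 RPKM ± 1.62 (SD, n = 3), HMOX1 9.13 RPKM ± 0.136 (SD, n = 3), OSGIN1 5 RPKM ± 0.441 (SD, n = 3) and GCLC 4.08 RPKM ± 0.284 (SD, n = 3). Neighbours in this order did not overlap in their replicates in either group, and the order was the same in PELP1-KD cells. The order depends on the transcript taken. With the length of the principal transcript in place of all exons, NFE2L2 stood above SRXN1 in control cells, at 73.9 against 70.7 RPKM, and below it in PELP1-KD cells. By the same length NFE2L2 stood above KEAP1 in both groups, at 73.9 against 48.6 RPKM in control cells and 64.8 against 42.6 RPKM in PELP1-KD cells, and GCLC stood above OSGIN1 in control cells.

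**Figure D2:**
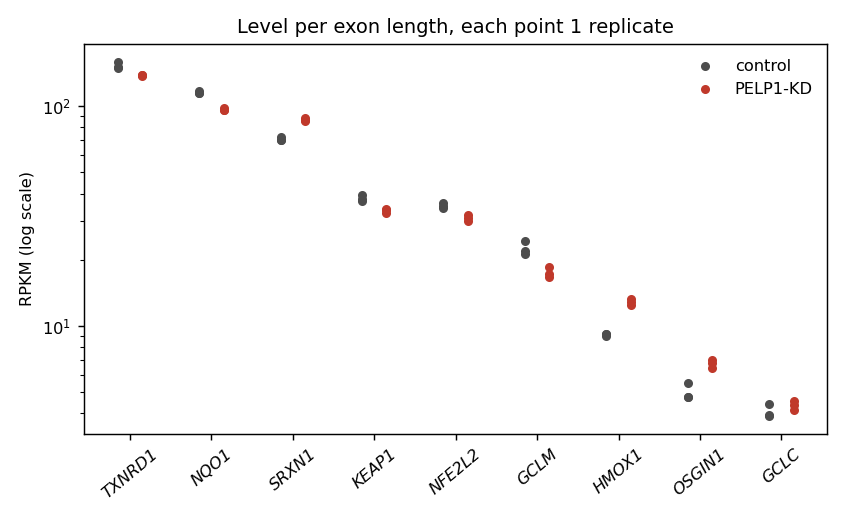
Level of each member in RPKM on a log axis, with 1 point for each replicate, control in grey and PELP1-KD in red. TXNRD1, NQO1 and SRXN1 hold the top of the order in both groups, and GCLC the lowest place.

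NFE2L2 and KEAP1, the transcription factor and its inhibitor, were both downregulated in PELP1-KD cells, and by nearly the same amount. NFE2L2 lies at chr2:177227595-177392697 on the minus strand of GRCh38. It had 217, 206 and 209 CPM in control replicates 1, 2 and 3 and 191, 179 and 185 CPM in PELP1-KD replicates 1, 2 and 3. All 3 PELP1-KD values lay below the lowest control value. NFE2L2 fell by 12.4%, with a log2FC of -0.19 (SE, the standard error, 0.036, adjusted p = 0.00022). KEAP1, at chr19:10486120-10503741 on the minus strand, had 140, 149 and 142 CPM in the controls and 127, 128 and 123 CPM in PELP1-KD cells. Again the groups did not overlap, and KEAP1 also fell by 12.4%, with a log2FC of -0.19 (SE 0.039, adjusted p = 0.00037). Of all tested genes, 45.1% had a larger absolute log2FC than NFE2L2, whose exons overlap those of AC019080.1 on the same strand in GENCODE. On the other strand they overlap exons of AGPS and AC079305.1, and the strand setting of the counting is not given.

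The ratio of NFE2L2 to KEAP1 reads within a library does not depend on scaling between libraries. It was 1.56, 1.39 and 1.47 in the controls and 1.51, 1.4 and 1.5 in PELP1-KD cells, and the groups overlapped. The log2 ratio differed by -0.001 between groups (SE 0.059, two-sided exact permutation test, p = 1, where 3 replicates against 3 allow no p-value below 0.1), and with any single replicate left out it lay between -0.042 and 0.042. A difference in the ratio was not detectable among these replicates.

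Glutamate-cysteine ligase, which carries out the rate-limiting step of glutathione synthesis, consists of a catalytic subunit, GCLC, and a modifier subunit, GCLM, that raises the efficiency of the enzyme. Their mRNAs parted in PELP1-KD cells. GCLM, at chr1:93885205-93909456 on the minus strand, had 131, 115 and 118 CPM in the controls and 101, 90.9 and 93.7 CPM in PELP1-KD cells. The groups did not overlap, and GCLM fell by 21.7%, with a log2FC of -0.35 (SE 0.051, adjusted p = 9.94e-06). GCLC, at chr6:53497341-53616970 on the minus strand, had 38.1, 33.8 and 33.9 CPM in the controls and 37.9, 36 and 39.3 CPM in PELP1-KD cells. Control replicate 1 lay within the PELP1-KD values, and the log2FC of 0.10 was not past the threshold (SE 0.062, adjusted p = 0.187, 95% interval -0.03 to 0.23). Without control replicate 1, which had the highest CPM of both subunits among the controls, the log2FC of GCLC was 0.16 (adjusted p = 0.0362) and that of GCLM was -0.29 (adjusted p = 1.02e-07). With scaling by library totals in place of TMM, GCLC also passed, with a log2FC of 0.15 (adjusted p = 0.0476). Without control replicate 1 or with library totals, 4 of the 9 members were thus upregulated in place of 3. The exons of GCLC overlap those of AL033397.1 on the same strand in GENCODE and those of AL033397.2 on the other strand.

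Within each library, the reads on GCLM were 3.45, 3.4 and 3.49 times those on GCLC in the controls and 2.66, 2.53 and 2.38 times in PELP1-KD cells. Both groups were narrow and did not overlap. The mean ratio fell from 3.45 ± 0.047 (SD, n = 3) to 2.53 ± 0.139 (SD, n = 3), a difference of -0.45 on the log2 scale (SE 0.047, exact permutation test, two-sided, p = 0.1, which is the smallest that 3 replicates against 3 allow). Leaving out any single replicate kept the difference between -0.49 and -0.41.

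**Figure D3:**
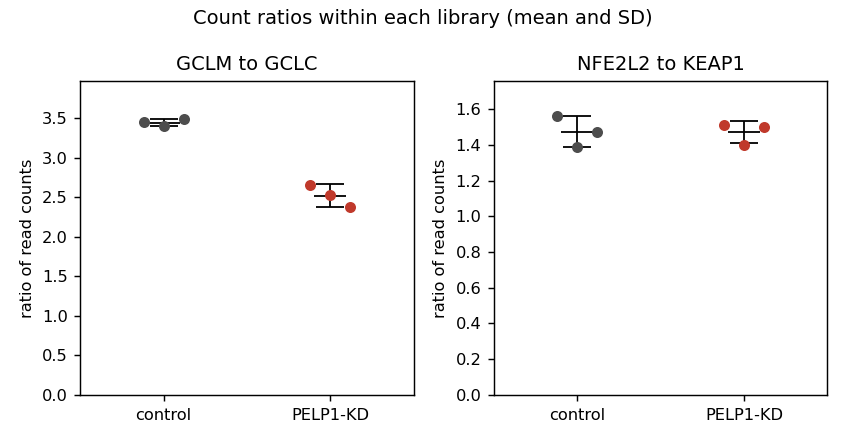
Ratio of read counts within each library, GCLM to GCLC on the left and NFE2L2 to KEAP1 on the right, with 1 point for each replicate and the mean with its SD. The GCLM to GCLC ratio lies between 3.4 and 3.49 in the controls and between 2.38 and 2.66 in PELP1-KD cells, whereas the NFE2L2 to KEAP1 ratios overlap.

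TXNRD1 and SRXN1 both serve thiol-based peroxide removal, and they moved in opposite directions. TXNRD1, the cytosolic thioredoxin reductase that uses NADPH to reduce thioredoxin, lies at chr12:104215779-104350305 on the plus strand. It had 1067, 1004 and 997 CPM in the controls and 925, 920 and 933 CPM in PELP1-KD cells. The groups did not overlap, and TXNRD1 fell by 9.43%, the least among the members past the threshold, with a log2FC of -0.14 (SE 0.028, adjusted p = 0.000296). Of all tested genes, 56.0% had a larger absolute log2FC. SRXN1, or sulfiredoxin, which repairs overoxidized peroxiredoxins, lies at chr20:646615-653370 on the minus strand. It had 188, 189 and 195 CPM in the controls and 232, 237 and 233 CPM in PELP1-KD cells. The replicates within each group lay close together, and SRXN1 was 22.7% higher, with a log2FC of 0.30 (SE 0.033, adjusted p = 3.44e-07). The exons of SRXN1 overlap those of AL121758.1 on the same strand in GENCODE, and reads that fall on both are uncertain.

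NQO1 and HMOX1, the enzymes most often used as readouts of NRF2 activity, also moved in opposite directions. NQO1, which reduces quinones to hydroquinones, lies at chr16:69706996-69726951 on the minus strand. It had 379, 373 and 372 CPM in the controls and 311, 313 and 319 CPM in PELP1-KD cells. Its coefficient of variation was 1.07% in the controls and 1.25% in PELP1-KD cells, and it fell by 16.1%, with a log2FC of -0.25 (SE 0.03, adjusted p = 5.66e-07). An antisense gene, AC092115.2, overlaps an exon of NQO1 in GENCODE, and whether the counting used strand is not given in the sources used here.

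HMOX1, or heme oxygenase 1, which opens the heme ring to biliverdin, iron and carbon monoxide, lies at chr22:35380361-35394214 on the plus strand. It had 22.2, 22.1 and 21.6 CPM in the controls and 31, 30.1 and 32 CPM in PELP1-KD cells. The groups were well apart, and HMOX1 was 41.4% higher, with a log2FC of 0.50 (SE 0.063, adjusted p = 1.62e-06). Of all tested genes, 12.9% had a larger absolute log2FC. The genes whose log2 CPM over the 6 replicates was most like that of HMOX1 were GRPR and FAT3, both with a Pearson r of 0.9991, and GARS, with an r of 0.9984. All 6 replicates share the contrast between groups, and 897 tested genes had an r above 0.95, so that the likeness is a description alone.

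OSGIN1, an oxidative-stress-induced growth inhibitor, lies at chr16:83948282-83966332 on the plus strand. It had 16.4, 19.1 and 16.4 CPM in the controls and 22.3, 24.3 and 23.5 CPM in PELP1-KD cells. Control replicate 2 was the highest control and still lay below every PELP1-KD replicate. OSGIN1 was 35.1% higher, with a log2FC of 0.43 (SE 0.077, adjusted p = 0.000114), and had the widest spread among the control replicates of all members, a coefficient of variation of 8.82%. Its exons overlap those of AC009119.2 on the same strand in GENCODE.

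**Figure D4:**
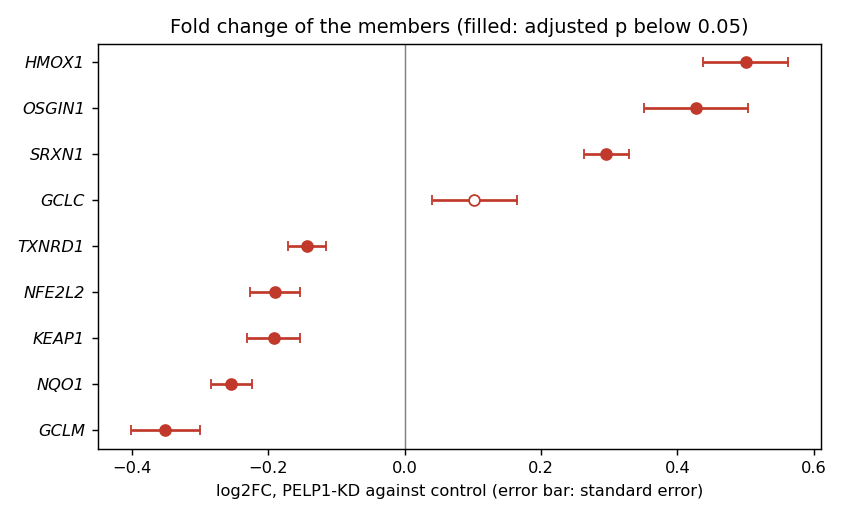
The log2FC of each member, PELP1-KD against control, with its standard error (SE) as the bar and a filled point where the adjusted p-value was below 0.05. GCLM, NQO1, KEAP1, NFE2L2 and TXNRD1 lie below 0, HMOX1, OSGIN1 and SRXN1 above 0, and GCLC is open.

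The promoters were searched for the core of the ARE, because the enzymes among the members are known as NRF2 targets while their changes differed in direction. The windows of the control genes NFE2L2 and KEAP1 were searched as well. RefSeq windows of 300 bases on GRCh38.p14, from 250 before to 50 after each annotated start, were at hand for 8 of the 9 members, with 11 windows in all. The core TGACNNNGC was searched on both strands and was found in 13.3% of the 35116 windows of all genes, and in 4 member windows that belong to 3 genes. The matches are shown here with 10 bases on either side, 5′ to 3′ on the strand of the gene, with the core in capitals, as matches to the reference genome and not as sites shown to be bound.
GCLM, chr1:93909446-93909474, minus strand: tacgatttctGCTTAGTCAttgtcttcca
TXNRD1, chr12:104215670-104215698, plus strand: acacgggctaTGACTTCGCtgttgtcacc
TXNRD1, chr12:104215761-104215789, plus strand: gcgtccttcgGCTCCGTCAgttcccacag
TXNRD1, second start, chr12:104286920-104286948, plus strand: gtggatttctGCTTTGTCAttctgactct
KEAP1, second start, chr19:10502807-10502835, minus strand: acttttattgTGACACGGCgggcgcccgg
KEAP1, second start, chr19:10502784-10502812, minus strand: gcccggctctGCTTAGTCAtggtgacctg

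The core in GCLM begins 34 bases before its start, those in TXNRD1 begin 99, 8 and 102 bases before the respective start, and those in KEAP1 begin 54 and 31 bases before its second start. The core of GCLM and the second of KEAP1 have the same 9 letters, and the printed stretches of KEAP1 overlap. GCLM, TXNRD1 and KEAP1 were all downregulated, as were 5 of the 9 members in all, and the window of the first start of KEAP1 held no match. HMOX1, the member that rose the most, had no window and was not searched. A link between the core and the direction of change was not tested. Of the 5 members with a window and no match, NFE2L2 and NQO1 were downregulated, SRXN1 and OSGIN1 were upregulated and GCLC passed no threshold. A window without these letters says nothing of elements farther away.

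The wider antioxidant system was followed in 7 lists with 72 genes in all, of which 67 were tested, and 1 of the lists holds 8 superoxide and peroxide enzymes not counted as NRF2 targets here. Of these 67, 13 were downregulated (19.4%) and 27 were upregulated (40.3%), against 24.2% and 22.7% of all tested genes. Together 59.7% passed, against 46.9% of all tested genes and 53.3% of those with a mean CPM at or above 20.3. The lists were chosen with earlier results of these data known, so that the shares are a description alone. Without the 8 enzymes not counted as NRF2 targets, 12 of 59 tested genes were lower and 24 higher, and the median log2FC was 0.082. The 59 genes include 10 regulators of NRF2, and the other lists go by function, whether or not each gene is an NRF2 target. The 59 are thus not a set of its targets alone. The median log2FC was 0.065 over these 67 genes, -0.14 over the 9 members and 0.0014 over all tested genes, and the median absolute log2FC was 0.131, 0.254 and 0.167 in the same order. With library totals in place of TMM, 9 of the 67 genes were lower and 32 were higher, and 61.2% of all called genes were higher where TMM gave 48.3%. Of the 5 genes not tested, GPX2 had no read, and AKR1C1, AKR1C2, AKR1B10 and ALDH3A1 had at most 8 reads in any replicate. AKR1C1 and AKR1C2 are near-identical paralogs, and reads that aligned to several places were placed on no gene. The part of this in their counts was not tested.

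**Figure D5:**
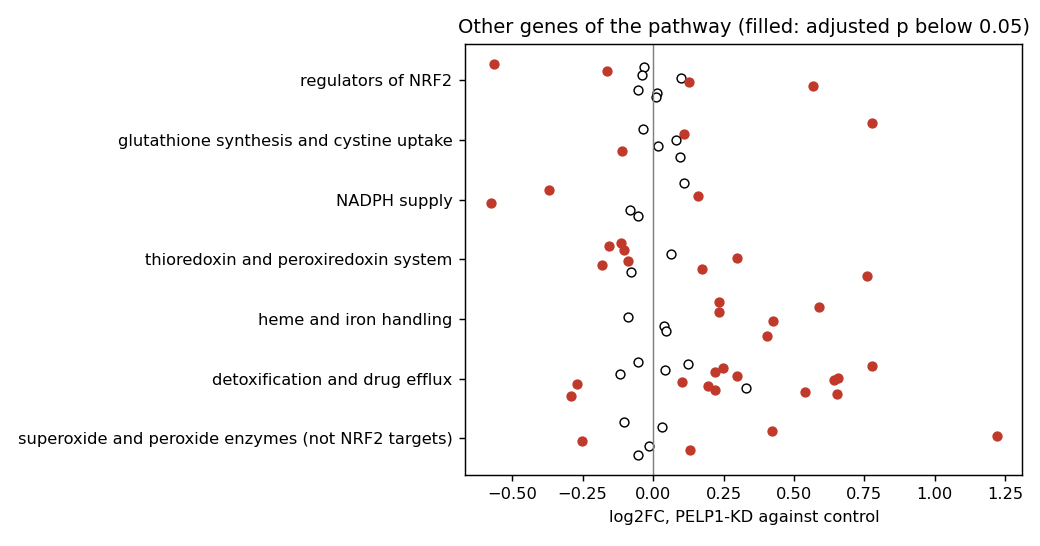
The log2FC of the 67 tested genes of the 7 pathway lists, 1 point for each gene, filled where the adjusted p-value was below 0.05. The filled points of heme and iron handling all lie above 0, and those of the other lists lie on both sides.

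Among 10 partners and regulators of NRF2, 2 were downregulated, 2 were upregulated and 6 passed no threshold. Each direction thus held 20%, against 24.2% lower and 22.7% higher of all tested genes. BACH1, the repressor that competes with NRF2, had 72.7, 70.1 and 69.9 CPM in the controls and 50, 47.6 and 46.4 CPM in PELP1-KD cells. The groups were far apart, and its log2FC was -0.56 (SE 0.049, adjusted p = 9.95e-09), larger in size than that of any member. MAFK, a small MAF protein that pairs with both NRF2 and BACH1, had 47.5, 52.9 and 50.5 CPM in the controls and 72.8, 77.2 and 74.1 CPM in PELP1-KD cells, and the log2FC was 0.57 (SE 0.051, adjusted p = 1.52e-08). MAFG, of the same family, had a log2FC of 0.13 (adjusted p = 0.0142), which was not past the threshold without PELP1-KD replicate 3 (adjusted p = 0.0566). CUL3, the scaffold of the KEAP1 ubiquitin ligase, fell with a log2FC of -0.16 (adjusted p = 0.00469). SQSTM1, the autophagy receptor that binds KEAP1, was at 462 CPM ± 18.8 (SD, n = 3) and 466 CPM ± 14.5 (SD, n = 3), with a log2FC of 0.01 (adjusted p = 0.803).

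In glutathione metabolism beside the ligase, 1 of 7 tested genes was downregulated and 2 were upregulated. These are 14.3% and 28.6%, against 24.2% and 22.7% of all tested genes. CHAC1, which degrades glutathione, rose from a mean of 3.13 ± 0.541 CPM in controls to 5.39 ± 0.416 CPM in PELP1-KD cells (SD, n = 3), with a log2FC of 0.78 (SE 0.147, adjusted p = 0.000204). SLC7A11, the cystine-importing subunit of the antiporter that feeds glutathione synthesis, had 263, 230 and 223 CPM in the controls and 260, 250 and 254 CPM in PELP1-KD cells. As for GCLC and GCLM, control replicate 1 was the highest control and here overlapped the PELP1-KD values, and the log2FC of 0.10 was not past the threshold (adjusted p = 0.0877). Without control replicate 1 it was 0.17 (adjusted p = 1.99e-05), without control replicate 2 it was 0.07 (adjusted p = 0.31) and without control replicate 3 it was 0.05 (adjusted p = 0.413). With library totals it was 0.15 (adjusted p = 0.01), and in a fit blocked on replicate number it was 0.10 (adjusted p = 0.0157). SLC3A2, the partner subunit of SLC7A11, fell with a log2FC of -0.11 (adjusted p = 0.00797), which library totals brought to -0.06 (adjusted p = 0.13). Its call was also lost without control replicate 2 (adjusted p = 0.068) or PELP1-KD replicate 3 (adjusted p = 0.0537).

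Of 6 genes that supply NADPH, PGD and IDH1 were downregulated, ME1 was upregulated and 3 passed no threshold. That is 33.3% lower and 16.7% higher, against 24.2% and 22.7% of all tested genes. PGD, the decarboxylating dehydrogenase of the pentose phosphate pathway, had 137, 132 and 132 CPM in the controls and 83.9, 92.6 and 92.2 CPM in PELP1-KD cells. Its log2FC was -0.58 (SE 0.044, adjusted p = 1.17e-09). IDH1, the cytosolic isocitrate dehydrogenase, had a log2FC of -0.37 (adjusted p = 0.000115). The malic enzyme ME1 had a log2FC of 0.16 (adjusted p = 0.0181), and it lost the call when control replicate 2, control replicate 3, PELP1-KD replicate 2 or PELP1-KD replicate 3 was left out, with adjusted p-values between 0.0524 and 0.0727.

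The thioredoxin and peroxiredoxin list held 10 tested genes. Of these, 5 were downregulated (50%, against 24.2% of all tested genes) and 3 upregulated (30%, against 22.7%). TXN, the thioredoxin that TXNRD1 reduces, fell from a mean of 404 ± 8.04 CPM in controls to 356 ± 10.6 CPM in PELP1-KD cells (SD, n = 3), with a log2FC of -0.18 (SE 0.031, adjusted p = 6.72e-05). PRDX2 and PRDX1, peroxiredoxins of the cytosol, fell with a log2FC of -0.16 (adjusted p = 0.00179) and -0.11 (adjusted p = 0.00168), and PRDX1 did not pass with library totals, at -0.06 (adjusted p = 0.0536). TXNRD2, the mitochondrial thioredoxin reductase, rose from a mean of 29.8 ± 1.34 CPM in controls to 50.6 ± 3.54 CPM in PELP1-KD cells (SD, n = 3), with a log2FC of 0.76 (SE 0.063, adjusted p = 3.85e-09), whereas TXNRD1 fell. TXN2, the mitochondrial thioredoxin, and PRDX5 rose too, with a log2FC of 0.17 (adjusted p = 0.0029) and 0.30 (adjusted p = 1.27e-05). PRDX3, the mitochondrial peroxiredoxin, fell with a log2FC of -0.105 (adjusted p = 0.00581), and PRDX6 fell with a log2FC of -0.09 (adjusted p = 0.0192). With library totals in place of TMM, 9 genes of the pathway lists were lower, and neither PRDX3 nor PRDX6 was among them. With TMM, proteins of the mitochondria thus stood among both the upregulated and the downregulated genes. TXNIP, the inhibitor of thioredoxin, was at 231 CPM ± 5.52 (SD, n = 3) and 219 CPM ± 1.54 (SD, n = 3), with a log2FC of -0.08 (adjusted p = 0.0599), with library totals it was -0.03 (adjusted p = 0.494), and in a fit blocked on replicate number its adjusted p-value was 0.0436. TXN, PRDX1, PRDX2 and PRDX3 have pseudogenes by name in GENCODE, and so do PGD, SQSTM1 and SOD2 of the other lists. Reads shared with these pseudogenes were counted on no gene.

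In heme and iron handling, 5 of 8 tested genes were upregulated (62.5%, against 22.7% of all tested genes), as HMOX1 was, and 3 passed no threshold. BLVRB, or biliverdin reductase B, had 36.9, 41.6 and 39.3 CPM in the controls and 61.7, 59.6 and 56.6 CPM in PELP1-KD cells. The log2FC was 0.59 (SE 0.057, adjusted p = 3.88e-08). FTH1, the heavy chain of the iron store ferritin, had 283, 377 and 385 CPM in the controls and 459, 478 and 471 CPM in PELP1-KD cells. Control replicate 1 was the lowest, the log2FC was 0.43 (adjusted p = 2.95e-05), and without this replicate it was 0.30 (adjusted p = 1.9e-13). FTH1 has 25 pseudogenes by name in GENCODE, and its counts leave out reads shared with them. FTL, the light chain of ferritin, has 16 such pseudogenes and passed no threshold. It was at 1583 CPM ± 71.1 in controls and 1623 CPM ± 49.6 in PELP1-KD cells (SD, n = 3), with a log2FC of 0.04 (adjusted p = 0.336). SLC48A1, a heme transporter, rose with a log2FC of 0.40 (SE 0.097, adjusted p = 0.00182).

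The list of detoxification and drug efflux genes had 11 upregulated and 2 downregulated genes among 18 tested. Its shares of 61.1% and 11.1% stand against 22.7% and 24.2% of all tested genes. ABCC3, an efflux pump for conjugated compounds, rose from a mean of 12.2 ± 0.625 CPM in controls to 21 ± 0.403 CPM in PELP1-KD cells (SD, n = 3), with a log2FC of 0.78 (SE 0.077, adjusted p = 6.11e-08). GSTA4, a glutathione transferase for lipid aldehydes, rose with a log2FC of 0.65 (adjusted p = 2.82e-07), and TRIM16L rose with a log2FC of 0.65 (adjusted p = 3.04e-08). TRIM16L is a near copy of part of TRIM16, and reads shared by both were counted on neither. UGDH, which makes UDP-glucuronic acid, and MGST1, a microsomal glutathione transferase, fell with a log2FC of -0.29 (adjusted p = 7.42e-05) and -0.27 (adjusted p = 1.85e-05), in the same direction as NQO1.

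Of 8 superoxide and peroxide enzymes not counted as NRF2 targets here, 1 was downregulated and 3 were upregulated. The shares are 12.5% and 37.5%, against 24.2% and 22.7% over all tested genes. GPX7, a peroxidase of the endoplasmic reticulum, had 6, 8 and 8 reads in the controls and 19, 21 and 18 reads in PELP1-KD cells, a log2FC of 1.22 (SE 0.334, adjusted p = 0.00508) on few reads, and it was not kept by a filter of at least 10 reads in every replicate. GPX3, the secreted glutathione peroxidase, rose with a log2FC of 0.42 (adjusted p = 3.43e-08), and GPX8, of the endoplasmic reticulum, fell with a log2FC of -0.25 (adjusted p = 2.95e-05). SOD2, the mitochondrial superoxide dismutase, had a log2FC of 0.13 (adjusted p = 0.014), and its call was lost without control replicate 2, control replicate 3 or PELP1-KD replicate 3, with adjusted p-values between 0.0517 and 0.0752.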

How the data were processed

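RNA-seq was done on 3 control and 3 PELP1-KD replicates of MDA-MB-231 cells, with stranded mRNA libraries and single reads of 50 bases. The authors deposited raw read counts per gene symbol for each replicate, without normalization. The submitters' processing notes name bcl2fastq, TopHat2, SAMtools, HTSeq and the build hg19, and versions, annotation and strand setting are not given in the sources used here. Alignments at more than 1 place made up between 32.5% and 32.9% of each table and were placed on no gene, and these, the ambiguous ones and those on no gene were left out of the library sizes.

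Genes passing filterByExpr of edgeR 4.0.16 (minimum count 10) were kept, scaled by TMM and tested by its quasi-likelihood test in R 4.3.3, control against PELP1-KD, and p-values were adjusted over all 12796 tested genes by Benjamini-Hochberg. The standard error was taken as the size of the log2FC over the root of F. A prior count of 2 went into log2 CPM. For count ratios, scipy 1.17.1 gave the exact permutation p-value, two-sided. Exon lengths and gene positions came from GENCODE release 29 on GRCh38, which is not the build of the counts, and 92.4% of the listed symbols had a length. In 10 of 11 member promoter windows the downstream end was found in a GENCODE transcript of that gene.

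The alternatives were RLE size factors, library totals, DESeq2 1.42.0, voom in limma 3.58.1, other filters on low counts, the replicate number as a block and each replicate left out. Members and lists were chosen with earlier results of these data known. The genes named are the members, PELP1, up to 3 called genes in each direction of each list with groups that do not overlap, 4 well known genes (SLC7A11, BACH1, SQSTM1 and TXNIP), and the 3 genes most like the member with the largest change. Markers are named outside this rule, and so are PRDX3, PRDX6, FTL, TRIM16, AKR1C1, AKR1C2, AKR1B10, ALDH3A1 and GPX2, which were chosen after their values were seen. The floor of 3 reads covers counting error alone. The value of 1 leukocyte marker is not reported here.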

Additional observations from a re-analysis of the deposited data

How the results depend on the processing

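Each of the 8 called members kept its direction and its adjusted p-value below 0.05 in all 13 alternatives, with log2FC from -0.395 to -0.294 for GCLM, -0.264 to -0.204 for NQO1, -0.213 to -0.143 for KEAP1, -0.21 to -0.141 for NFE2L2, -0.162 to -0.093 for TXNRD1, 0.286 to 0.345 for SRXN1, 0.387 to 0.508 for OSGIN1 and 0.476 to 0.549 for HMOX1. GCLC ranged from 0.068 to 0.157, with adjusted p-values from 0.0362 to 0.482. Same-numbered replicates of both groups deviated from their group means with correlations of 0.0388, 0.0653 and -0.0784, so that the numbers were not taken to pair the samples. With the replicate number as a block, 5 members were lower and 3 higher, the pathway lists had 15 lower and 29 higher genes, 3335 genes were lower and 3140 higher over all, and the log2 ratios were -0.451 for GCLM to GCLC and -0.001 for NFE2L2 to KEAP1. DESeq2 gave 2699 lower and 2391 higher genes. GPX7 was not kept by the filter of at least 10 counts in every replicate. No count of calls moved by more than 1.5 times. TXNIP passed with at least 10 counts in every replicate (0.0452), and SLC7A11 passed with no filter on low counts (0.022). The cause of these changes was not tested.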
